A study of Homo sapiens with 8 samples.

Results

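The clustered histone genes are the short, mostly intronless genes that supply new histone proteins when DNA is copied. They were taken here as every gene name beginning HIST1H, HIST2H or HIST3H, without names that end in P or PS and digits, the usual mark of a pseudogene. Of 88 such names, 14 were left out and 74 were kept, among 55765 gene names in the tables. GENCODE 29 types 13 of the 14 as pseudogenes and 1, HIST2H3PS2, as protein coding. By name the 74 members were 6 H1, 17 H2A, 23 H2B, 14 H3 and 14 H4 genes, with 55 in the HIST1 cluster on chromosome 6 and 15 HIST2 and 4 HIST3 members on chromosome 1. RNA was sequenced from NB4 cells, an acute promyelocytic leukaemia line carrying the PML-RARA fusion, and from Kasumi-1 cells, an acute myeloid leukaemia line carrying the RUNX1-RUNX1T1 fusion. In each line, cells given 40 uM chlorprothixene, a thioxanthene antipsychotic, for 6, 12 or 24 h were set beside untreated cells. There was 1 library per condition, 8 in all. The labels name no vehicle and no untreated culture at the later times, so the drug and time in culture cannot be told apart, and each leukaemia is represented by 1 cell line.

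Histones package DNA: pairs of H2A, H2B, H3 and H4 form the core of the nucleosome, and H1 binds the linker DNA between cores. Transcription of the clustered genes rises in S phase with DNA replication, and most of their mRNAs end in a conserved stem-loop bound by SLBP rather than in a poly(A) tail. Some of the genes can also give longer, polyadenylated transcripts when cells leave the cycle or differentiate. The labels name the RNA library kit but not whether poly(A) RNA was selected, so which of these forms was measured is not known. Nor can fewer cells in S phase be told apart from less histone mRNA per cell, since each library is a bulk sample.

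Levels are given as TPM, each gene's share of the transcripts in a library, a per-length scale on which genes can be compared. The Kasumi-1 markers RUNX1T1, CD34 and KIT reached at most 0.311 TPM in NB4 libraries and were at least 18.3 TPM in every Kasumi-1 library. CTSG and STAB1 were higher in NB4, while HGF, listed as an NB4 marker, was higher in Kasumi-1 libraries (197 to 251 TPM) than in NB4 libraries (0.884 to 3.54 TPM). MPO, a myeloid granule enzyme, was at 1528 to 11406 TPM. HBB, MS4A1 and KRT19 of the other cell types were listed at 0, and EPCAM at 15.7 to 29.7 TPM. Read totals are not given in the tables, but coverage times span gave aligned bases for the members with a span up to 1000 bp. Base totals of 151 and its multiples recurred, and taking 151 bases as a read length, 1 TPM of such a member stood for 9.49 to 12.5 read lengths, depending on the library. Counted as independent reads, which mates of a pair are not, 9 reads have an exact 95% Poisson interval of 4.12 to 17.1, so single values near 1 TPM are imprecise by counting alone.

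The 3′ stem-loop was read from the GENCODE 29 transcripts (GRCh38) as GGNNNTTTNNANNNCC with complementary 6-base ends, on the transcript strand only. It was present in transcripts of 30 of the 74 members, against 0.155% of all genes with transcripts. The letters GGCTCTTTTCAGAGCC stood in 18 members and in 20 of 58721 genes overall. The other letters were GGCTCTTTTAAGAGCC in 5 members, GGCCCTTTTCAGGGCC in 4 and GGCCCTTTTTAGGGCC in 3. A member without a match, such as HIST1H2BK or HIST2H2AC, only lacks these letters in the transcripts of that release. The windows below are those of members whose levels carry the results, in transcript orientation from 5′ to 3′, with the stem-loop in capitals.
HIST2H2AA3 and HIST2H2AA4: ctcaaaaGGCTCTTTTCAGAGCCacccacg
HIST2H2BE: ctccaaaGGCTCTTTTCAGAGCCacccacc
HIST1H2AC: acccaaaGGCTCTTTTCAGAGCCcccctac
HIST2H3A and HIST2H3C: tccaaaaGGCTCTTTTCAGAGCCacccaca
HIST1H2BD: tcccaaaGGCTCTTTTAAGAGCCacgcatg
HIST2H4A and HIST2H4B: tcccaaaGGCCCTTTTTAGGGCCgaccact
HIST1H4H: aaccaaaGGCCCTTTTCAGGGCCgcccact
The H4 loops differ from the H2A and H3 loops in their arms, and the pairs HIST2H2AA3 with HIST2H2AA4, HIST2H3A with HIST2H3C, and HIST2H4A with HIST2H4B are identical over the window. In 20 members at least 1 annotated transcript ran more than 100 bases past the stem-loop, among them HIST2H2BE with 1729 bases and HIST1H2AC with 1114 or 1128 bases.

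The clustered histone genes made up a small share of the measured RNA, between 0.00850% and 0.0320% of all TPM. Their summed level in NB4 cells was 151 TPM untreated, 85.0 TPM at 6 h, 103 TPM at 12 h and 167 TPM at 24 h. In Kasumi-1 cells the sum was 219 TPM untreated, 235 TPM at 6 h, 319.5 TPM at 12 h and 242 TPM at 24 h. The NB4 sum was thus lowest at 6 h and at its highest at 24 h, whereas the Kasumi-1 sum was highest at 12 h. On the log2 scale the sum changed from untreated by −0.83, −0.56 and 0.14 in NB4 cells and by 0.10, 0.54 and 0.14 in Kasumi-1 cells at 6, 12 and 24 h. With 1 library per condition these changes have no replicate error.

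**Figure D1:**
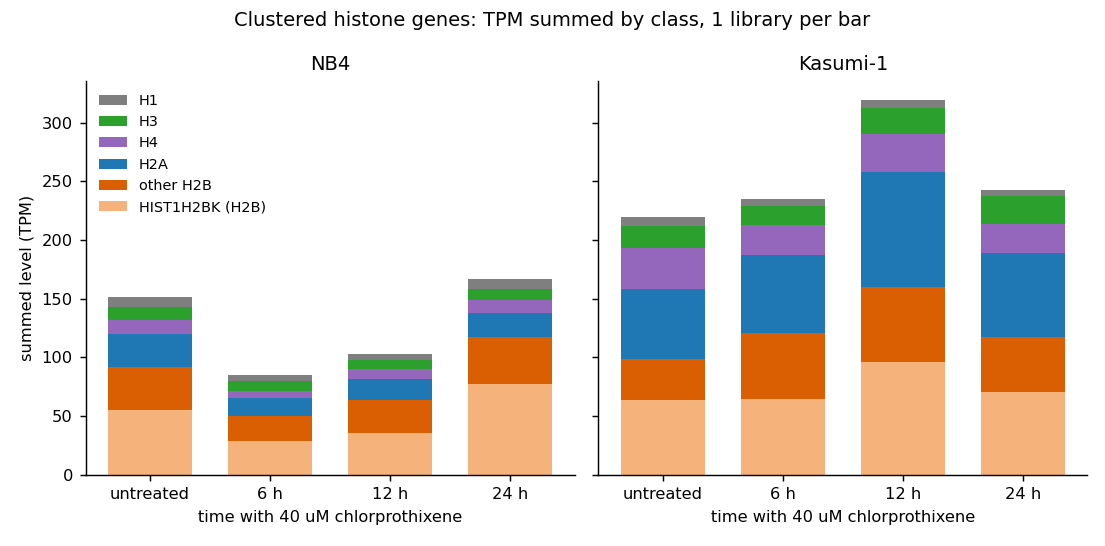
Summed level of the 74 clustered histone genes (TPM) in each library, stacked by class with HIST1H2BK apart, for NB4 (left) and Kasumi-1 (right). Each bar is 1 library. The NB4 bar is lowest at 6 h (85.0 TPM), the Kasumi-1 bar is tallest at 12 h (319.5 TPM), and HIST1H2BK is the largest single piece of every bar.

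A single H2B gene dominated these sums. HIST1H2BK (hg19 chr6:27106073-27114619, minus strand), which encodes a core H2B, was at 55.5, 28.6, 35.9 and 77.6 TPM in NB4 cells untreated and at 6, 12 and 24 h. In Kasumi-1 cells it was at 64.1, 64.6, 96.4 and 70.8 TPM at the same times. It ranked first among members in all 8 libraries and held 27.5% to 46.5% of the summed level. Its annotated span of 8547 bp is far longer than a histone coding region and overlaps HIST1H4I on the opposite strand, which was at 0.167 to 1.38 TPM. Strand-specific counting is not stated, so reads of such overlapping pairs cannot be assigned with certainty. Members with a span over 1000 bp were more abundant as a group: 18 of 21 had a mean of at least 1 TPM and their median mean level was 2.68 TPM. Among the 53 members with a span up to 1000 bp, 19 had a mean of at least 1 TPM and the median mean level was 0.674 TPM.

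HIST1H1C, the H1.2 gene, made up most of the H1 linker histone level, between 71.2% and 89.5% of the H1 sum. It was at 7.06, 3.85, 4.41 and 7.18 TPM in NB4 cells and at 6.42, 5.17, 6.05 and 3.70 TPM in Kasumi-1 cells, in the order untreated, 6, 12 and 24 h. The ranges of the lines overlapped, and the lines differed by 0.05 on the log2 scale (NB4 minus Kasumi-1, SE 0.24, limma adjusted p = 0.879). In NB4 cells the level was lower at 6 and 12 h than untreated and back at the untreated level at 24 h. The next H1 genes by mean level were HIST1H1E at 0.568 TPM, HIST1H1B at 0.421 TPM and HIST1H1D at 0.0686 TPM. The testis H1 gene HIST1H1T was above 0 in 2 libraries only, at 0.108 TPM or less.

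Among the H2A genes, a pair of HIST2 copies was higher in treated than in untreated Kasumi-1 cells, while several other H2A genes were lower. HIST2H2AA4 (hg19 chr1:149822643-149823191, plus strand) was at 5.58, 3.41, 3.17 and 5.48 TPM in NB4 cells and at 8.70, 20.1, 35.6 and 22.9 TPM in Kasumi-1 cells. HIST2H2AA3 (hg19 chr1:149813505-149814478, minus strand) was at 3.09, 2.04, 2.29 and 3.63 TPM in NB4 cells and at 6.14, 12.8, 22.9 and 14.6 TPM in Kasumi-1 cells. In Kasumi-1 cells both were lowest untreated and highest at 12 h, where the levels were 4.08 and 3.74 times the untreated level, and all Kasumi-1 libraries lay above all NB4 libraries. Both genes share a 549-base run, the whole HIST2H2AA3 transcript in GENCODE 29, so reads cannot be told apart over it and they are best read as 1 quantity. The deposited HIST2H2AA3 row spans 974 bp, which is longer than this run. Their summed level was 8.67, 5.45, 5.47 and 9.11 TPM in NB4 cells and 14.8, 32.9, 58.5 and 37.4 TPM in Kasumi-1 cells.

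HIST2H2AC, another HIST2 H2A gene (hg19 chr1:149858525-149858961, plus strand), ran the other way in Kasumi-1 cells. It shares 17.2% of its 100-base transcript windows with HIST2H2AA3 and HIST2H2AA4, so the 3 are not measured wholly apart. It was at 1.88, 1.95, 2.41 and 0.873 TPM in NB4 cells and at 16.3, 11.8, 8.11 and 7.86 TPM in Kasumi-1 cells. In Kasumi-1 cells its level was lower at each later time, and every Kasumi-1 library stood above every NB4 library. The aligned bases behind it came to 8.40 to 21.0 read lengths in NB4 libraries and 72.4 to 161 in Kasumi-1 libraries. HIST1H2AC, the most abundant HIST1 H2A gene, was at 6.74, 1.32, 2.73 and 2.72 TPM in NB4 cells and at 10.6, 5.23, 13.3 and 10.9 TPM in Kasumi-1 cells. In NB4 cells each treated library was at 0.196 to 0.405 times the untreated level, and in Kasumi-1 cells the 6 h library alone was low. HIST1H2AM was lower than untreated at all 3 treated times in both lines, with 3.27, 1.64, 1.26 and 0.383 TPM in NB4 cells and 2.71, 1.53, 1.88 and 1.75 TPM in Kasumi-1 cells. Its row overlaps HIST1H3J on the same strand, so the counts of both are uncertain. HIST1H2AG was also below untreated at every treated time in both lines, at 1.33, 0.779, 0.642 and 0.970 TPM in NB4 cells and 2.65, 1.19, 1.60 and 1.17 TPM in Kasumi-1 cells. The summed H2A level changed in Kasumi-1 cells by 0.14, 0.71 and 0.27 on the log2 scale at 6, 12 and 24 h. Without HIST2H2AA3 and HIST2H2AA4 the H2A change in Kasumi-1 cells was −0.45, −0.20 and −0.38, so this pair set its sign. In NB4 cells the H2A change was −0.88, −0.68 and −0.47 with the pair and −0.98, −0.68 and −0.80 without it.

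**Figure D2:**
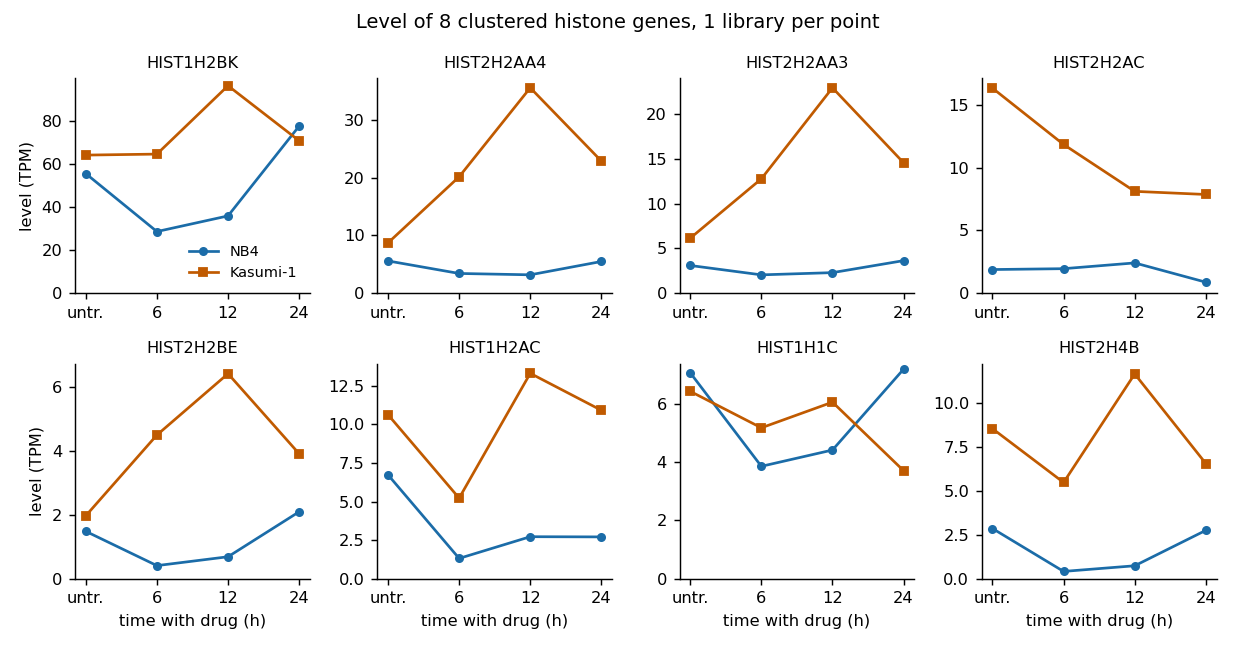
Level (TPM, axes from 0) of 8 clustered histone genes in NB4 (circles) and Kasumi-1 (squares) against time with the drug, 1 library per point. HIST2H2AA4 and HIST2H2AA3 peak at 12 h in Kasumi-1, at 35.6 and 22.9 TPM, while HIST2H2AC is lower there at each later time.

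The H2B genes held the largest share of the summed level in every library, between 44.8% and 70.5%. After HIST1H2BK, HIST1H2BD was highest, at 3.43, 1.02, 2.53 and 5.52 TPM in NB4 cells and 5.31, 7.50, 12.2 and 5.04 TPM in Kasumi-1 cells. HIST2H2BD was at 2.64, 3.78, 4.80 and 4.01 TPM in NB4 cells and 2.82, 3.89, 6.25 and 4.48 TPM in Kasumi-1 cells. HIST2H2BC was at 2.77, 2.93, 4.04 and 3.27 TPM in NB4 cells and 3.27, 4.11, 5.02 and 4.31 TPM in Kasumi-1 cells. HIST2H2BD and HIST2H2BC, which GENCODE 29 lists as pseudogenes, were thus higher than untreated at every treated time in both lines, with little separation of the lines. HIST1H2BJ stood out in NB4 cells, at 7.61 TPM untreated against 3.06, 2.13 and 1.88 TPM at 6, 12 and 24 h. Its Kasumi-1 levels were 1.84, 1.15, 2.50 and 2.23 TPM, so the untreated NB4 library alone was high. HIST1H2BO was also below its untreated NB4 level of 2.18 TPM at all 3 treated times, at 0.324, 0.330 and 1.30 TPM, and was at 0.988 to 2.35 TPM in Kasumi-1 cells. HIST1H2BH went the other way in NB4 cells, at 0.537, 1.67, 0.572 and 1.66 TPM, but the 12 h value was close to untreated. It was at 4.04, 2.16, 3.13 and 1.51 TPM in Kasumi-1 cells.

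Some HIST2 H2B rows had their steepest differences in Kasumi-1 cells. HIST2H2BB was at 2.63, 1.32, 3.55 and 3.10 TPM in NB4 cells and at 0.512, 8.48, 5.77 and 2.96 TPM in Kasumi-1 cells. HIST2H2BA was at 1.90, 1.21, 3.96 and 4.71 TPM in NB4 cells and at 0.641, 5.91, 3.46 and 4.72 TPM in Kasumi-1 cells. HIST2H2BF was at 2.01, 1.36, 2.45 and 2.64 TPM in NB4 cells and at 2.57, 7.07, 6.02 and 5.29 TPM in Kasumi-1 cells. In Kasumi-1 cells all 3 were lowest untreated and highest at 6 h. HIST2H2BA and HIST2H2BB are of pseudogene type in GENCODE 29. The row of HIST2H2BF spans 29684 bp and overlaps FCGR1A, an Fc receptor gene of myeloid cells, on the opposite strand, and the row of HIST2H2BB overlaps FCGR1C in the same way. FCGR1A was at 14.6, 14.1, 19.1 and 39.2 TPM in NB4 cells and at 12.3, 60.9, 95.2 and 65.4 TPM in Kasumi-1 cells. FCGR1C was at 12.9, 8.86, 12.2 and 22.9 TPM in NB4 cells and at 15.5, 68.0, 98.7 and 57.1 TPM in Kasumi-1 cells. Both receptor genes were several times more abundant than the histone rows they overlap and were also lowest untreated in Kasumi-1 cells. Their part in the HIST2H2BF and HIST2H2BB values was not tested. Without the 5 members of pseudogene type, the summed H2B level changed in Kasumi-1 cells by 0.12, 0.62 and 0.14 on the log2 scale, against 0.30, 0.70 and 0.25 with them.

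The H3 genes were expressed at lower levels. HIST1H3H, the most abundant, was at 3.31, 3.64, 1.51 and 3.36 TPM in NB4 cells and at 7.28, 3.49, 5.86 and 2.46 TPM in Kasumi-1 cells, with overlapping ranges. HIST2H3D was at 1.66, 0.456, 1.48 and 0.540 TPM in NB4 cells and at 0.608, 1.49, 2.21 and 3.99 TPM in Kasumi-1 cells, where it was higher at each later time. HIST1H3D was at 1.31, 0.300, 0.607 and 0.442 TPM in NB4 cells and at 1.44, 2.99, 2.99 and 2.29 TPM in Kasumi-1 cells. It was below untreated at every treated NB4 time and above untreated at every treated Kasumi-1 time, and its row overlaps HIST1H2AD on the same strand. HIST1H3I was below untreated at every treated time in both lines, at 1.30, 1.03, 0.640 and 0.569 TPM in NB4 cells and 2.38, 0.773, 1.33 and 0.393 TPM in Kasumi-1 cells. HIST1H3J was at 0.847, 0.956, 1.03 and 2.25 TPM in NB4 cells and at 0.362, 0.336, 1.56 and 1.17 TPM in Kasumi-1 cells. HIST2H3A and HIST2H3C have identical 1656-base transcripts, and their summed level was 1.13, 0.653, 1.21 and 1.81 TPM in NB4 cells and 2.01, 1.86, 4.50 and 3.56 TPM in Kasumi-1 cells.

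For all 5 tested H4 genes, every Kasumi-1 library lay above every NB4 library. HIST2H4B was at 2.86, 0.419, 0.740 and 2.76 TPM in NB4 cells and at 8.54, 5.48, 11.7 and 6.56 TPM in Kasumi-1 cells. HIST2H4A was at 1.55, 0.237, 1.31 and 2.28 TPM in NB4 cells and at 6.72, 3.83, 4.86 and 3.11 TPM in Kasumi-1 cells. In NB4 cells both were lowest at 6 h, and in Kasumi-1 cells HIST2H4B was highest at 12 h and HIST2H4A untreated. The genes share a 1547-base run, and each overlaps a HIST2H3 copy on the opposite strand. HIST1H4K was at 2.67, 1.97, 2.53 and 2.59 TPM in NB4 cells and at 6.79, 3.95, 3.22 and 4.35 TPM in Kasumi-1 cells. HIST1H4J was at 1.57, 1.88, 1.37 and 0.849 TPM in NB4 cells and at 5.22, 3.83, 2.11 and 2.28 TPM in Kasumi-1 cells. HIST1H4H was listed at 0 in NB4 cells at 12 h and was at 0.524 to 0.626 TPM in the other NB4 libraries, against 1.94, 2.82, 4.34 and 3.03 TPM in Kasumi-1 cells. HIST1H4J and HIST1H4K share most of their sequence, so reads may have been divided between them, whereas HIST1H4H shares no 100-base window with another member.

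**Figure D3:**
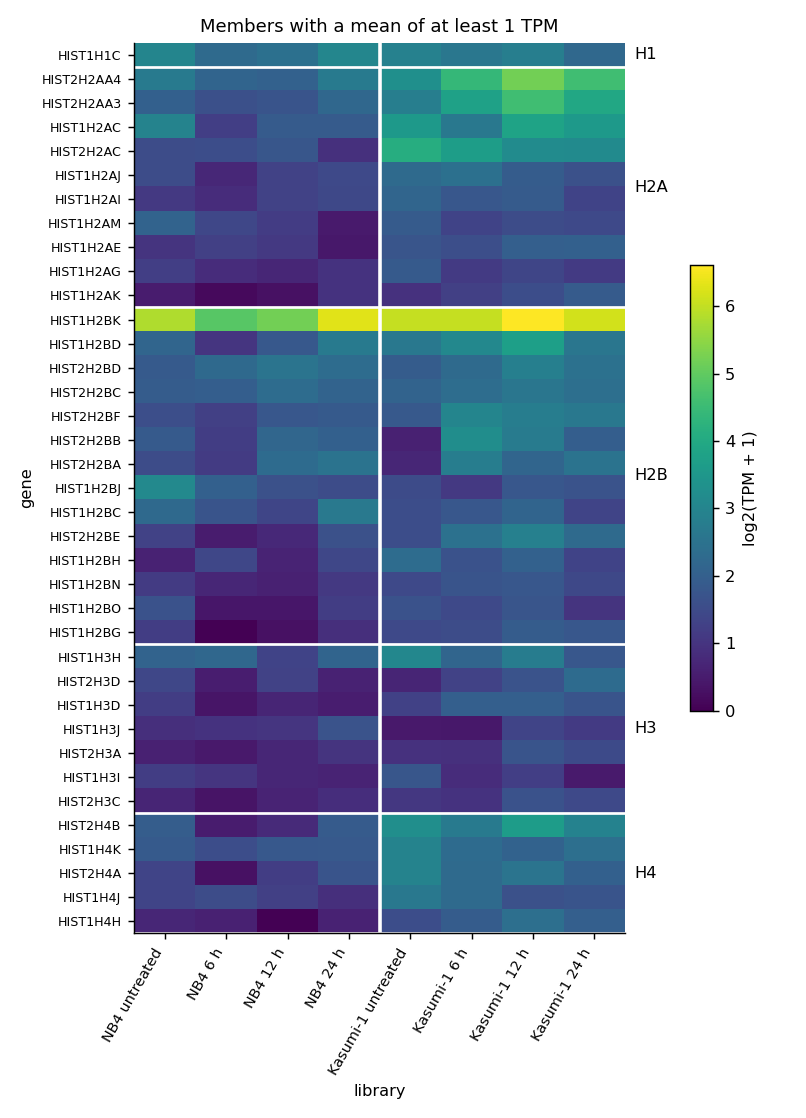
Level of the 37 members with a mean of at least 1 TPM in each library, as log2(TPM + 1), with NB4 libraries left of Kasumi-1 libraries and genes grouped by class and ordered by mean level. HIST1H2BK is the brightest row throughout, and HIST2H2AA4, HIST2H2AA3, HIST2H2AC and HIST2H4B are brighter in all 4 Kasumi-1 columns than in any NB4 column.

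The other 37 members averaged below 1 TPM and were described but not tested. The highest of them was HIST1H2BL with a mean of 0.971 TPM, just below the lowest tested mean of 1.03 TPM. HIST1H1A, HIST1H2AA, HIST1H2BA, HIST1H4G, HIST3H2BA, HIST3H2BB and HIST3H3 were listed at 0 in all 8 libraries. A further 21 members were at 0 in 1 to 7 libraries. In 5 members, HIST3H2A, HIST1H2BI, HIST1H2BB, HIST1H3G and HIST1H4F, all 4 NB4 libraries were at 0 and at least 1 Kasumi-1 library was not, the highest value being 1.68 TPM. No member showed the opposite. The share of all gene names with either pattern was not counted, and levels this low are imprecise. These counts therefore describe the listed values only and are not a result about the lines. The HIST3 cluster was close to silent, with 0.0760 TPM of HIST3H2A in Kasumi-1 cells at 12 h as its only value above 0, whereas 14 of 15 HIST2 members and 23 of 55 HIST1 members had a mean of at least 1 TPM.

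Many H2A and H2B genes stand head to head, with 1 short region between their starts. There were 16 such pairs with starts within 1000 bp in the deposited coordinates, 14 of them H2A with H2B. In 14 of the 16 both mean levels were above 0, and in 12 of these the higher was 1.26 to 3.54 times the lower. The remaining ratios were 10.3, for HIST1H3D with HIST1H2BF, and 89.1. HIST1H2BK and HIST1H2AH start 242 bp apart, yet HIST1H2AH was at 0.372 to 1.33 TPM, which gives the 89.1-fold ratio of mean levels. HIST2H2BE and HIST2H2AC start 293 bp apart and moved in opposite directions in Kasumi-1 cells. HIST2H2BE was at 1.48, 0.411, 0.688 and 2.09 TPM in NB4 cells and at 1.97, 4.49, 6.40 and 3.90 TPM in Kasumi-1 cells, while HIST2H2AC was highest untreated there. The level of HIST2H2BE over that of HIST2H2AC was 0.787, 0.211, 0.286 and 2.40 in NB4 cells and 0.120, 0.379, 0.789 and 0.496 in Kasumi-1 cells. HIST1H2AC over HIST1H2BC, 219 bp apart, was 1.80, 0.582, 1.69 and 0.501 in NB4 cells and 5.44, 2.12, 3.96 and 7.02 in Kasumi-1 cells.

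The promoter windows of HIST2H2AC and HIST1H2BK are shown because each reaches over the region between the starts of a head-to-head pair. They are RefSeq sequences of GRCh38.p14, from 250 bases before to 50 after the start, with 3 searched motifs in capitals on either strand: TATAAA, ATTTGCAT (the octamer of H2B promoters) and CCAAT. The HIST2H2AC window (chr1:149886668-149886967, plus strand) also holds the HIST2H2BE start, read on the other strand, and the HIST1H2BK window is chr6:27146809-27147108, minus strand.
HIST2H2AC promoter: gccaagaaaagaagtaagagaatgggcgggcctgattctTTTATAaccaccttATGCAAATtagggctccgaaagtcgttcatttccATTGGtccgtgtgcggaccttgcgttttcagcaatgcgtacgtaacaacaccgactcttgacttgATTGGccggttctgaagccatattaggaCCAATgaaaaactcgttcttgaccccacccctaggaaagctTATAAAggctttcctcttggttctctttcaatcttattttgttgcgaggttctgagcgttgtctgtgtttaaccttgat
HIST1H2BK promoter: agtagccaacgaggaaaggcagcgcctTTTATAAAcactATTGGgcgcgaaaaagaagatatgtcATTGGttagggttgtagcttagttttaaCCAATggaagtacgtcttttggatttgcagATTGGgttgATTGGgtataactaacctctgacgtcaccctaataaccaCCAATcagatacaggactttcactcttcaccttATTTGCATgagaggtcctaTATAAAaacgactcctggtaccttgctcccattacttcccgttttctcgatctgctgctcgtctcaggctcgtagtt
Matches of a motif on both strands can overlap. The octamer stood in 11 of 16 H2A promoters, 10 of 14 H2B promoters, 1 of 12 H3 promoters and in none of the 6 H1 or 12 H4 promoters with a sequence. Over all 60 members with a sequence it stood in 36.7%, against 1.80% of all 27303 promoters of this length. TATAAA stood in 66.7% of member promoters and 12.0% of all, and CCAAT in 85% of member promoters and 35.7% of all. Windows of head-to-head genes can overlap, as for HIST2H2AC with HIST2H2BE, so 1 site can count for both genes. The HIST1H3D window, the H3 promoter with the octamer, is the same as the HIST1H2AD window. The member counts and percentages therefore include some sites more than once. A match describes letters in a window and is not evidence of binding. The HIST2H2AA3 and HIST2H2AA4 promoters hold TATAAA and CCAAT but no ATTTGCAT.

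Whether the members responded to treatment in common was tested with limma on log2(TPM + 1) over the 14650 genes that averaged 1 TPM or more, using the lines as repeats. No tested member passed an adjusted p of 0.05 in either direction, where 0.0273% of all genes were higher and 0.0% lower. With unadjusted p-values under 0.05, HIST2H2BA and HIST2H2BD, 2 members, were higher in treated cells, and 4 were lower, HIST1H2AC, HIST1H2AG, HIST1H2AM and HIST1H3I. The same threshold took 9.3% of all genes as higher and 11.1% as lower, so the members' share was no higher than the background in either direction. The estimate for HIST2H2BA was 1.11 (SE 0.44) and that for HIST1H2AM −0.76 (SE 0.28), with limma adjusted p = 0.222 and 0.195.

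Within each line, members were counted where log2(TPM + 1) differed from untreated by at least 1, a measure that understates the fold of low genes. In NB4 cells HIST1H2AC and HIST1H2BJ were at least 2-fold lower at all 3 times, 2 of 37 tested members against 0.703% of all genes, and 0 were higher at all 3 times against 2.03%. In Kasumi-1 cells HIST2H2AA4, HIST2H2BA and HIST2H2BB were at least 2-fold higher at all 3 times, against 1.88% of all genes, and none was lower against 0.655%. HIST2H2BA and HIST2H2BB share 33.6% and 34.5% of their 100-base windows with other members, each other among them. The HIST2H2BB row also overlaps FCGR1C. All counts in this paragraph treat members with shared sequence as separate genes. At 6 h alone, 7 members were at least 2-fold lower in NB4 cells, where 2.27% of all genes were, and none was higher, against 3.06%. In Kasumi-1 cells 4 were higher at 6 h, where 6.44% of all genes were, and none was lower, against 2.99%. At 12 h the NB4 counts were 0 higher (5.6% of all genes) and 4 lower (2.37%), and the Kasumi-1 counts 6 higher (4.85%) and 1 lower (3.52%). At 24 h they were 0 higher (6.51%) and 3 lower (2.88%) in NB4 cells, and 5 higher (5.11%) and 3 lower (3.88%) in Kasumi-1 cells. The median change of the tested members at 6, 12 and 24 h was −0.43, −0.31 and 0.02 in NB4 cells and −0.03, 0.46 and 0.14 in Kasumi-1 cells. The median over all genes lay between −0.08 and 0.01 in these 6 comparisons. The 3 times of a line share 1 untreated library, which enters each of these changes.

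**Figure D4:**
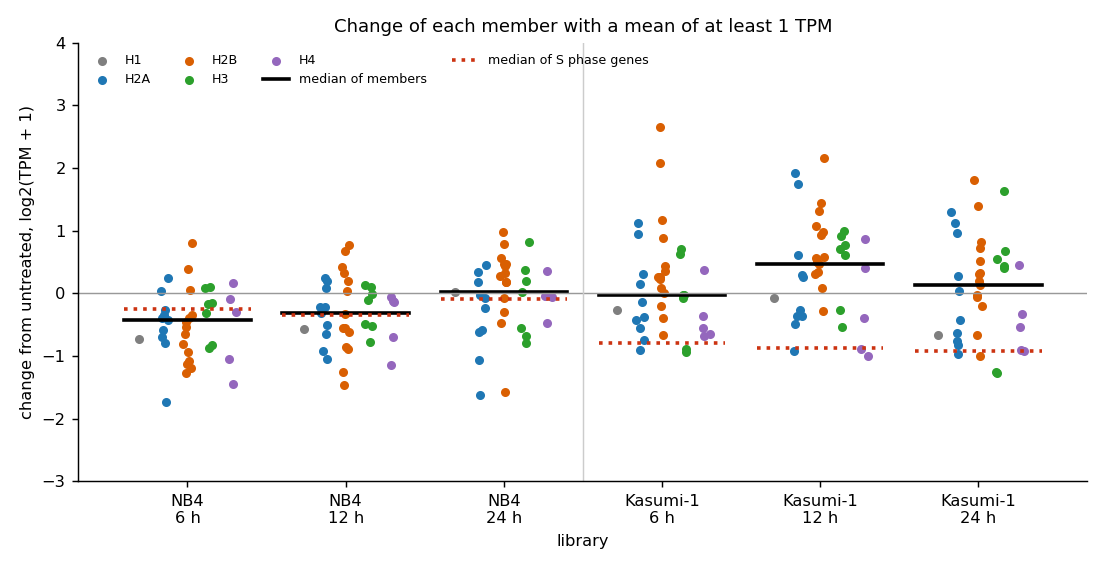
Change from untreated in log2(TPM + 1) for each of the 37 tested members, coloured by class, in the 3 treated NB4 libraries (left) and the 3 treated Kasumi-1 libraries (right). Black bars are the members' medians and dotted bars those of 27 S phase genes. The members' median is −0.43 in NB4 at 6 h and 0.46 in Kasumi-1 at 12 h, while the S phase median is between −0.80 and −0.92 in Kasumi-1.

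The difference in response between the lines was tested directly, as the treated minus untreated change in NB4 minus that in Kasumi-1. No tested member passed an adjusted p of 0.05, with 0.0887% of all genes more positive and 0.041% more negative in NB4. At an unadjusted p under 0.05, 6 members were more negative in NB4, against 4.22% of all genes, and none was more positive, against 6.37%. These were HIST1H2BJ, HIST1H3D, HIST2H2AA3, HIST2H2AA4, HIST2H2BB and HIST2H3D. HIST2H2AA3 and HIST2H2AA4 are copies counted separately, and the HIST2H2BB row overlaps FCGR1C, so the 6 overstate the number of independent differences. The estimate for HIST2H2AA4 was −1.86 (SE 0.53) and that for HIST1H3D −1.29 (SE 0.37), both with a limma adjusted p of 0.315. For HIST2H2AA4 the change in log2(TPM + 1) was −0.58, −0.66 and −0.02 in NB4 cells against 1.12, 1.91 and 1.30 in Kasumi-1 cells, without overlap. The difference for HIST1H2BK was −0.60 (SE 0.69).

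Across the matched times, the clustered histone genes were lower in NB4 than in Kasumi-1 cells. The NB4 sum was 0.690, 0.362, 0.322 and 0.688 times the Kasumi-1 sum untreated and at 6, 12 and 24 h. In the limma fit with line and time as terms, 20 of 37 tested members were lower in NB4 at an adjusted p under 0.05, where 27.8% of all genes were, and none was higher in NB4, where 27.5% were. Before adjustment, 23 members were lower in NB4, against 30.6% of all genes, and none was higher, against 30.4%. The median difference of the tested members was −0.66 on the log2 scale, against 0.00 over all genes. All 4 times agreed in direction for 19 of the 20, the exception being HIST1H2BD at 24 h. For 14 of them every Kasumi-1 library lay above every NB4 library, as it did for 24.5% of all genes tested. By class the 20 comprised 7 H2A, 5 H2B, 3 H3 and 5 H4 genes, and by cluster 11 HIST1 and 9 HIST2 genes. HIST2H2AA3 with HIST2H2AA4, HIST2H3A with HIST2H3C, HIST2H4A with HIST2H4B, and HIST1H4J with HIST1H4K share most of their sequence. All of them were among the 20, and these counts treat each copy as a separate gene, so they overstate the number of independent differences. Of the 20, 8 averaged below 1 TPM in NB4 cells (0.426 to 0.957 TPM) and were tested only because Kasumi-1 was high. Their higher mean in Kasumi-1 was therefore fixed by the filter, though passing the test was not. These 8 were 2 H2A, 2 H2B, all 3 H3 genes and HIST1H4H, which leaves 5 H2A, 3 H2B, 4 H4 and no H3 genes averaging 1 TPM or more in NB4. The 4 times of a line come from 1 culture line, so these p-values measure how alike the difference was over the times.

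The estimate was furthest from 0 for HIST2H2AC, at −2.09 (SE 0.22, limma adjusted p = 0.000284), where 4 libraries averaged 1.78 TPM in NB4 cells against 11.0 TPM for those of Kasumi-1. Next came HIST2H2AA4 at −1.96 (SE 0.38) and HIST2H2AA3 at −1.90 (SE 0.32), which share most of their sequence. HIST2H4B followed at −1.84 (SE 0.32) and HIST2H4A, its near copy, stood at −1.31 (SE 0.28). The remaining named genes were HIST1H4H at −1.49 (SE 0.27), HIST1H2AC at −1.41 (SE 0.24) and HIST2H2BE at −1.25 (SE 0.35). HIST2H2BE lost its call without the 6 h or 12 h library of either line (limma adjusted p = 0.0714 to 0.0809). The 5 tested H4 genes passed, HIST1H4H among them with its NB4 mean of 0.426 TPM. HIST1H4K lost its call without the untreated, 6 h or 24 h library of either line (limma adjusted p = 0.0588 to 0.0774). Over all alternatives, the call was lost for HIST1H2BD in 9 of 14, HIST2H3A in 8 of 12, HIST2H3C and HIST1H3D in 7 of 12 each, and HIST2H2BF in 5 of 13. HIST2H2AC kept its call in all 14, while HIST1H2AC, HIST2H2AA3, HIST2H2AA4, HIST2H4A, HIST2H4B, HIST1H4H and HIST1H4J lost it in 1 each. HIST1H2BK did not pass (−0.66, SE 0.26, limma adjusted p = 0.0708), and its 24 h level was higher in NB4 than in Kasumi-1 cells. It passed without the 24 h library of NB4 or that of Kasumi-1 (−0.92, limma adjusted p = 0.0258 and 0.0261) and with TPM rescaled without mitochondrially encoded and the 10 most abundant genes (−0.75, limma adjusted p = 0.0363). HIST1H1C, HIST1H2BJ, HIST1H2BC and HIST1H3J were the tested members with a higher mean in NB4, and none of them passed. The count rested on the middle times: it was 10 without the 12 h library of NB4 or that of Kasumi-1, and 11 without the 6 h library of either line. In those fits 22.8% to 23.3% of all genes were lower in NB4.

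**Figure D5:**
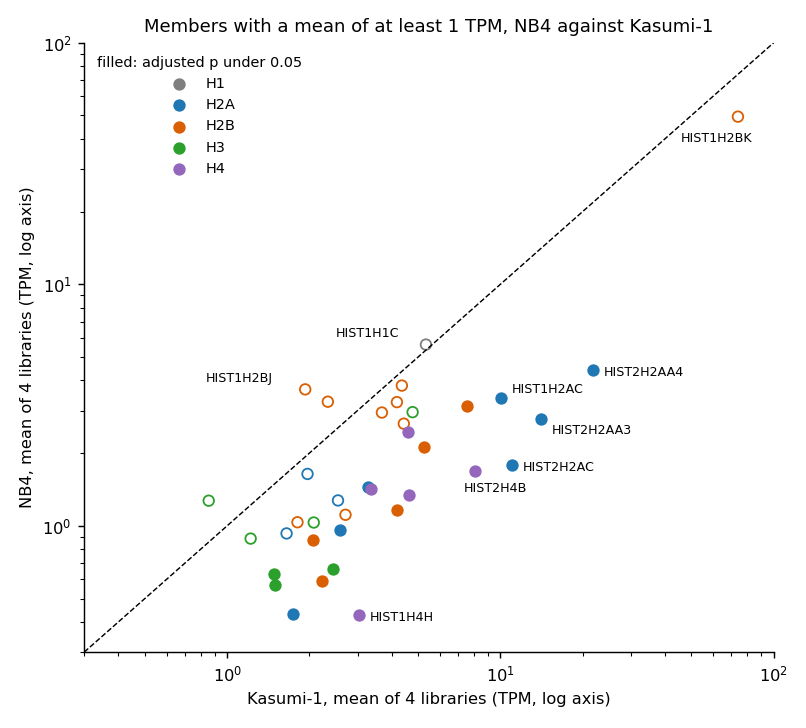
Mean level of each tested member over 4 NB4 libraries (vertical) and 4 Kasumi-1 libraries (horizontal), in TPM on log axes, coloured by class. Filled points are the 20 members with a limma adjusted p under 0.05 for the line difference, all of them below the dashed line of equal levels, and HIST1H2BK is the open point at the upper right.

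Other genes of histone supply were followed as lists. None of the 20 histone mRNA production genes, 10 tested histone genes outside the clusters, 23 histone chaperones or 27 S phase genes passed the limma test of the shared response at an adjusted p of 0.05. At an unadjusted p under 0.05, 16 S phase genes, 15 chaperones and 5 mRNA production genes were lower in treated cells, none of any list was higher, and no histone gene outside the clusters was past it, where 11.1% of all genes were lower and 9.3% higher. Among S phase genes, UNG, a uracil glycosylase, had an estimate of −1.16 (SE 0.24) and MCM2, a helicase subunit, −0.97 (SE 0.19). Their limma adjusted p was 0.0953 and 0.0869. The chaperone gene CHAF1B, a CAF-1 subunit, stood at −0.95 (SE 0.20, limma adjusted p = 0.101). The S phase median was −0.24, −0.35 and −0.09 in NB4 cells and −0.80, −0.88 and −0.92 in Kasumi-1 cells, with 27 of 27 genes lower at 6 h in Kasumi-1 cells. The clustered histone median was above 0 at 12 and 24 h in those same Kasumi-1 libraries, but members differed. The sum of the 53 members with a span up to 1000 bp changed there by 0.06, 0.40 and 0.12 on the log2 scale. Without HIST2H2AA3 and HIST2H2AA4, the change of the other 51 was −0.24, −0.19 and −0.25, so this pair set the sign. For the 20 members with a span over 1000 bp, without HIST1H2BK, the summed change was 0.26, 0.73 and 0.19. With HIST1H2BK it was 0.13, 0.65 and 0.16. In NB4 cells the change was −0.43, −0.37 and −0.22 for the 51 members. For the 20 members it was −1.27, −0.66 and −0.03 there.

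For the line difference, the numbers higher and lower in NB4 were 7 and 2 of the mRNA production genes, 1 and 3 of the histone genes outside the clusters, 9 and 3 of the chaperones, and 11 and 3 of the S phase genes, against 27.5% and 27.8% of all genes. SLBP, which binds the stem-loop and is named here for that role, after its values were seen, was at 357, 342, 251 and 315 TPM in NB4 cells. In Kasumi-1 cells it was at 141, 113, 98.5 and 72.2 TPM, so every NB4 library was above every Kasumi-1 library (difference 1.59, SE 0.15, limma adjusted p = 0.00018). The clustered histone sum was lower in NB4 than in Kasumi-1 cells at all 4 times. In the limma test of the response difference no gene of these lists passed at an adjusted p of 0.05. Before adjustment, 11 S phase genes, 4 chaperones, 4 mRNA production genes and 3 histone genes outside the clusters had a more positive estimate in NB4 than in Kasumi-1 cells at p under 0.05, and none a more negative one, against 6.37% and 4.22% of all genes. H1F0, the replacement linker histone outside the clusters, was listed at 0 in all 4 NB4 libraries and was at 23.9, 33.4, 37.7 and 35.6 TPM in Kasumi-1 cells.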

How the data were processed

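RNA from 8 libraries, 1 for each of 4 conditions in NB4 and Kasumi-1 cells, was analysed from gene tables of the authors. Per the submitters' processing notes, the tools were HISAT2 and StringTie on hg19; versions, annotation and strand settings are not stated in those notes. Per the file headers, each deposited table gives TPM, FPKM and coverage signal per gene. TPM of rows with the same gene name were summed. Coverage served only to estimate aligned bases, and FPKM as an alternative.

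Differences were fitted with limma 3.58.1 in R 4.3.3 (moderated with a trend) on log2(TPM + 1), pseudocount 1, over the 14650 genes averaging 1 TPM or more, two-sided, with Benjamini-Hochberg adjustment over all of them at 0.05. The shared response (mean of 6, 12 and 24 h minus untreated) and the line difference came from a model with line and time, with 3 residual degrees of freedom. The response difference came from a model with line, treatment and their product, with 4. Only the shared response fit was tried on simulated data, with independent noise and with changes placed in more abundant genes. That trial does not cover the line difference, the response difference or members at low levels. Sums and 2-fold counts had no test. Python 3.11.15 (numpy 2.4.6, pandas 2.3.3, matplotlib 3.10.9) made the tables and figures. Alternatives were other filters, pseudocount 0.1, FPKM, rescaled TPM, sums with other members, other models, and each library left out.

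The members and lists were chosen with earlier results of these data known. Members named were the 4 most abundant per class, copies, members at 0, and those past a test. If over 15 passed, the 8 with the largest size each way were named. Up to 5 each way per line were also named among tested members that changed in the same direction at every treated time. They were ranked by their smallest change over the times, largest first. In the line where such a member was picked, its shared direction over the treated times is therefore not a separate result. Of the lists, the genes with the largest shared change were named. Overlapping genes and SLBP were named after their values were seen. Coordinates are those of the deposited tables (hg19). Stem-loops came from GENCODE 29 transcripts (38 members matched by gene ID, 36 by name) and promoters from RefSeq (GRCh38.p14, 60 members matched). No read counts are given; aligned bases of short members were taken as coverage times span, assuming 1 exon, with a read length of 151 bases inferred from recurring totals. The labels do not name separate cultures, and p-values measure the spread between these libraries.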

Additional observations from a re-analysis of the deposited data

Results flagged for a closer look

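The summed H2A level moved in opposite directions in the lines at every treated time, which drew attention to it. Its log2 change from untreated at 6, 12 and 24 h was -0.88, -0.68 and -0.47 in NB4 cells and 0.14, 0.71 and 0.27 in Kasumi-1 cells. This difference of sums was not tested, and each line has 1 untreated library that enters all 3 of its changes. Without HIST2H2AA3 and HIST2H2AA4, which share nearly all of their sequence, the Kasumi-1 change was -0.45, -0.20 and -0.38, the same direction as in NB4 cells.

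Outside the members, 2 names left out by their ending were picked by a rule. Every treated library had to be above the untreated one in both lines, and the highest value had to reach 1 TPM. HIST2H3DP1 was at 1.11, 1.86, 4.56 and 2.50 TPM in NB4 cells and at 0.586, 3.96, 3.58 and 3.19 TPM in Kasumi-1 cells, in the order untreated, 6, 12 and 24 h. HIST2H3PS2, which GENCODE 29 types as protein coding, was at 1.20, 2.06, 2.61 and 1.66 TPM in NB4 cells and at 0.634, 5.62, 2.88 and 2.29 TPM in Kasumi-1 cells. Because the rule required it, the shared direction of both names over the treated libraries is not a separate result. Each overlaps a clone-named gene on the opposite strand, and the part of those genes in the values was not tested.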

How the results depend on the processing

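The count of 20 members higher in Kasumi-1 than in NB4 was 11 of 26 tested with a filter at a mean of 1 TPM in each line (22.8% of all genes), chosen after seeing the data, 5 of 7 with a filter at a mean of 5 TPM (26.5%), and 2 of 74 with no filter (4.82%). It ranged from 10 to 18 of 37 when each library was left out (22.8% to 26.4%), and no member was higher in NB4 in any of these fits. The fits without filter test 55765 genes, and those with the higher filters fewer members. The count of members at least 2-fold higher at all 3 times in Kasumi-1 cells, 3, was 6 with a pseudocount of 0.1, 1 with a filter at a mean of 5 TPM and 1 on FPKM. The count at least 2-fold lower at all 3 times in NB4 cells, 2, was 1 with that filter and 0 on FPKM. FPKM values are lower than TPM, so the same pseudocount weighs more. The shared response and the response difference had 0 members past the threshold in every leave-one-out fit, and the response difference could not be fitted without either untreated library. No result changed sign past its threshold. The line difference already matches the lines at each time through its time term. Beyond that, no paired analysis was possible because the labels give no replicate numbers and each condition has 1 library. Counting error for members near 1 TPM could be set only roughly, from coverage.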
